A study of Arabidopsis thaliana with 6 samples.

Results

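Of 10 listed genes of jasmonate synthesis and response, 5 were found on the array through 4 probe sets out of 22746 tested, which held 14937 named genes. They are LOX2 (AT3G45140, probe set 252618_at, the plastid 13-lipoxygenase), OPR3 (AT2G06050, 265530_at, the peroxisomal 12-oxophytodienoate reductase), VSP1 (AT5G24780) and VSP2 (AT5G24770), vegetative storage proteins that share the probe set 245928_s_at, and PDF1.2 (AT5G44420, 249052_at, a plant defensin). The platform annotation named PDF1.2 alone. The other 3 probe sets were named through a supplementary list of the study, which holds probe sets the study called changed in other mutants, so a gene that changed there was more likely to be named here. A second supplementary list, of ribosomal protein genes, named none of them. AOS (AT5G42650, allene oxide synthase), AOC1 and AOC2 (AT3G25760 and AT3G25770, allene oxide cyclases), JAZ1 (AT1G19180, a repressor) and TAT3 (AT2G24850, a tyrosine aminotransferase) were named by neither source and were not analysed here. VSP1 and VSP2 are neighbouring genes, and their shared probe set gives 1 value for both.

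Jasmonate is the plant hormone of wounding, herbivory and defence against necrotrophic fungi. It is made from plastid fatty acids: a lipoxygenase, an allene oxide synthase and an allene oxide cyclase act in turn in the plastid, and a reductase and the enzymes of beta-oxidation complete the synthesis in the peroxisome. The conjugate of jasmonate with isoleucine joins the receptor COI1 to JAZ repressor proteins, the repressors are degraded, and transcription factors such as MYC2 are released. One output branch, through MYC factors, raises wound genes such as the vegetative storage proteins, and the other, through ERF factors together with ethylene, raises defensins such as PDF1.2. Several synthesis genes, LOX2 and OPR3 among them, are themselves raised by jasmonate.

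The arrays measured total mRNA of the aerial part of 11-day-old Columbia seedlings, grown on plates of GM medium with sucrose, on the ATH1 array, and the labels name no wounding or hormone treatment. There were 3 arrays of the eif3k mutant and 3 of the wild type (WT). The mutant is a single T-DNA line (GK-274H04) with its insertion in an intron of At4g33250, the gene of the k subunit of translation initiation factor eIF3. The labels call the replicates biological and give replicate 3 of both genotypes a later array date than replicates 1 and 2, so each signal is described by genotype (eif3k minus WT) and by array date (replicate 3 minus replicates 1 and 2). All values are deposited log2 signals on a scale with a floor of 2.25 and a maximum of 15.55, so a difference of 1 is a 2-fold difference.

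The label check and the quality of the arrays were as follows. eIF3k itself read 6.81, 6.62 and 7.52 in eif3k, against 8.82, 9.18 and 8.89 in WT, and was 3.94-fold lower in the mutant with no overlap of the groups, although its adjusted p was 0.864 (limma, Benjamini-Hochberg over all probe sets). The sources used here do not place its probes relative to the insertion. Array medians lay between 4.02 and 4.12. Signal of the 25S rRNA control was 8.13 on eif3k replicate 3, against 12.04 to 12.87 on the other 5 arrays. The Actin control's 3′ probe set exceeded its 5′ probe set by 3.99 on WT replicate 3, against 3.04 to 3.19 on the others. The same difference was also highest on WT replicate 3 for GAPDH (5.02, against 3.92 to 4.18) and Ubiquitin (0.91, against 0.59 to 0.84). The leaf gene RCA was high on every array, at 14.88 to 15.06. Of the 2 root markers, the root hair gene EXPA7 was at the floor, while PYK10 read 10.40 to 11.61. The seed storage protein gene CRU1 read 7.58 and 7.43 on eif3k replicates 2 and 3 and 8.93 on WT replicate 3, against 2.62 to 2.98 on the other 3 arrays. The plot of RNA controls and marker genes shows the 25S rRNA, Actin and CRU1 values, and those of FAMA, which is described further below.

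**Figure D1:**
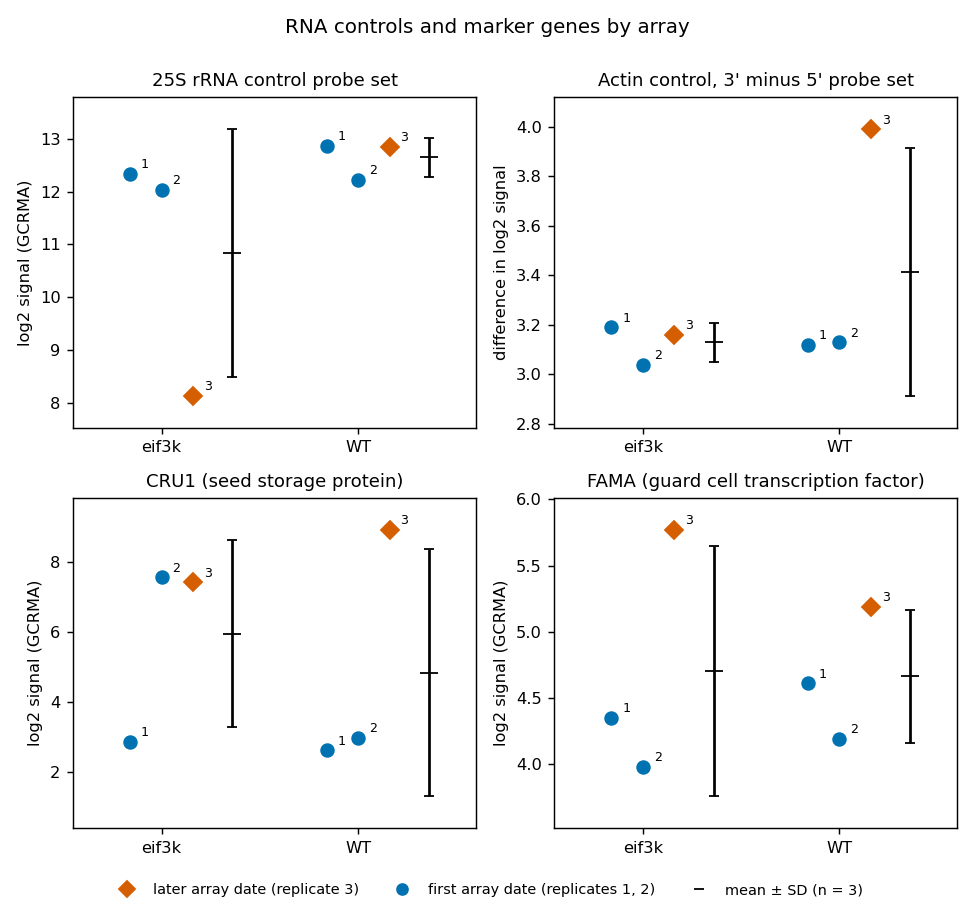
Log2 signal of the 25S rRNA control, CRU1 and FAMA, and the 3′ minus 5′ difference of the Actin control (vertical axes, log2) on each array of eif3k and WT. Orange diamonds are the later array date, blue circles the first, numbers are replicates, and bars are mean ± SD (n = 3). The 25S rRNA control was low on eif3k replicate 3 (8.13) and the Actin difference was high on WT replicate 3 (3.99).

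LOX2, which oxygenates linolenic acid at the start of the pathway, was high on both arrays of the later date. Its signal was 10.66, 10.84 and 12.21 in eif3k replicates 1, 2 and 3, against 9.13, 9.51 and 11.84 in WT. Each eif3k array was above the WT array of the same number, but WT replicate 3 lay above eif3k replicates 1 and 2, so the groups overlapped. LOX2 averaged 11.24 ± 0.85 in eif3k and 10.16 ± 1.47 in WT (SD, n = 3 each), a difference of 1.08 (SE 0.93, 95% interval −1.43 to 3.58) or 2.11-fold, which did not pass the test (limma, adjusted p = 1.00). On the first array date alone both eif3k arrays were above both WT arrays and the difference was 1.43, or 2.69-fold. On the later date it was 0.37.

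OPR3, which reduces 12-oxophytodienoic acid in the peroxisome, had a similar arrangement of arrays. Its signal was 7.19, 6.94 and 8.46 in eif3k replicates 1, 2 and 3, against 6.49, 6.32 and 8.02 in WT. The eif3k array was higher in each of the 3 pairs of same-numbered arrays, by 0.70, 0.62 and 0.44, and WT replicate 3 again lay above the first eif3k arrays. The means were 7.53 ± 0.82 in eif3k and 6.94 ± 0.94 in WT (SD, n = 3 each), a difference of 0.59 (SE 0.68, 95% interval −1.25 to 2.42) or 1.50-fold that did not pass the test (limma, adjusted p = 1.00).

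The shared probe set of VSP1 and VSP2, acid phosphatase-like storage proteins that accumulate after wounding, was low on the first-date WT arrays only. Signal was 8.74, 8.15 and 8.95 in eif3k replicates 1, 2 and 3, against 6.95, 6.21 and 9.07 in WT. Both first-date WT arrays were low, while WT replicate 3 was the highest of all 6 arrays. The means were 8.61 ± 0.41 in eif3k and 7.41 ± 1.48 in WT (SD, n = 3 each), and the difference of 1.203 (SE 0.85, 95% interval −1.08 to 3.48) or 2.30-fold did not pass the test (limma, adjusted p = 1.00). The pairs differed by 1.79, 1.94 and −0.12, so that signal was 3.64-fold higher in eif3k on the first date and no higher on the later one.

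PDF1.2 is an antifungal defensin of the jasmonate and ethylene branch and was near the floor of the scale on most arrays. Its signal was 2.44, 3.34 and 4.72 in eif3k replicates 1, 2 and 3, against 2.39, 2.26 and 2.53 in WT. Only eif3k replicates 2 and 3 stood clear of the floor, and 4 of the 6 arrays read under 3. The means were 3.50 ± 1.15 in eif3k and 2.39 ± 0.14 in WT (SD, n = 3 each), a difference of 1.11 (SE 0.64, 95% interval −0.60 to 2.82) that did not pass the test (limma, adjusted p = 1.00). No fold is given, since the WT signals lay close to the floor. The eif3k array exceeded the WT array by 0.05, 1.08 and 2.19 in the 3 pairs, so the third pair set most of the mean difference, whereas for VSP1 and VSP2 the third pair added none.

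**Figure D2:**
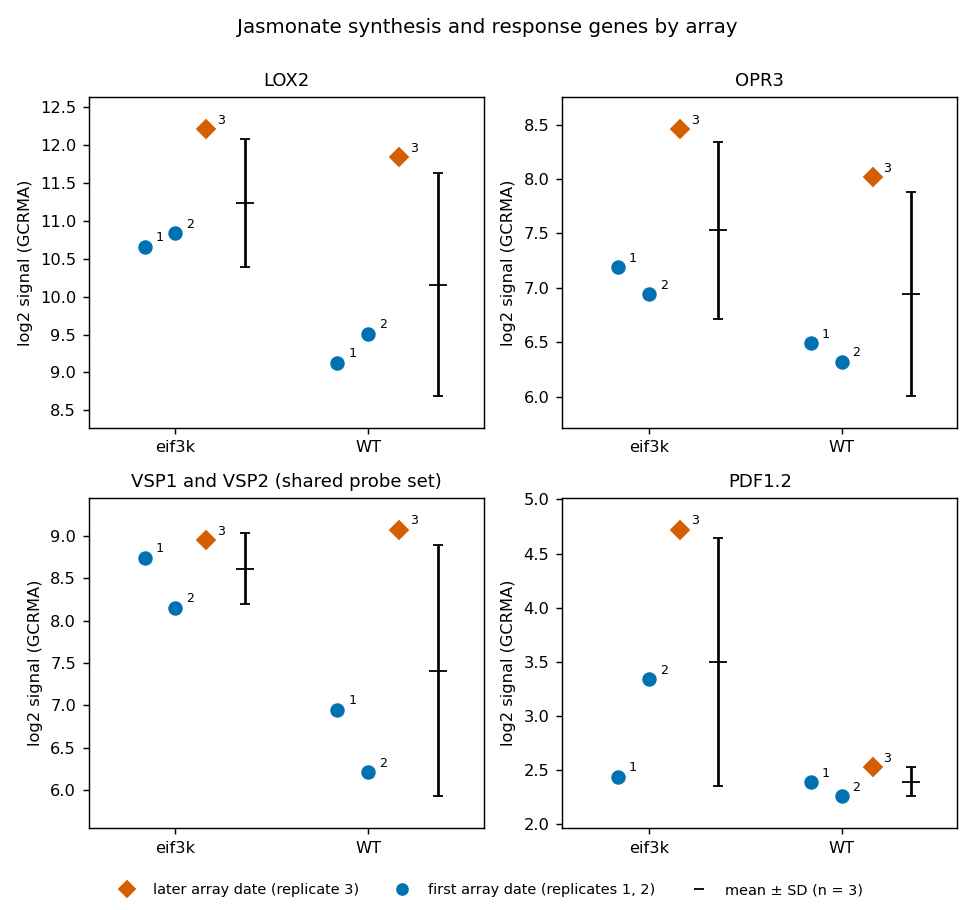
Log2 signal (vertical axes, each with its own range) of LOX2, OPR3, the shared VSP1 and VSP2 probe set, and PDF1.2 on each array of eif3k and WT. Orange diamonds are the later array date, blue circles the first, numbers are replicates, and bars are mean ± SD (n = 3). For LOX2, OPR3 and VSP1 and VSP2 both later arrays sit above all 4 first-date arrays, and for PDF1.2 only eif3k replicates 2 and 3 read above 3.

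Read by genotype, none of the 4 probe sets passed the rule of an adjusted p under 0.05 with at least a 2-fold difference, and neither did any other probe set (0% of 22746). At an unadjusted p under 0.05, 694 probe sets (3.05%) were counted and none of the 4 was among them. With the replicate number as a block OPR3 was among 1089 such probe sets (4.79%), and with the array date as a block LOX2 and OPR3 were among 1196 (5.26%). On the first date alone LOX2, OPR3 and VSP1 and VSP2 were among 1216 (5.35%). None of these passed after adjustment. By size alone, VSP1 and VSP2, PDF1.2 and LOX2 were higher in eif3k by at least 1 on the log2 scale (2-fold), which held for 118 probe sets (0.519%), with PDF1.2 set against WT signals near the floor. That count of 3 was 1 without eif3k replicate 3, WT replicate 1 or WT replicate 2, and 4 without WT replicate 3. The share of all probe sets in these refits is not given, so the shifts are not set against a background. LOX2, OPR3 and PDF1.2 were higher in eif3k in all 3 same-numbered pairs, as were 1871 probe sets (8.23%). All 4 had both first-date eif3k arrays above both first-date WT arrays, which held for 2439 probe sets (10.7%), and VSP1 and VSP2 and LOX2 were at least 2-fold higher there, as were 92 probe sets (0.404%). No member had all its eif3k arrays above all its WT arrays, a pattern of 617 probe sets (2.71%). The median genotype difference over the 4 was 1.09 (range 0.59 to 1.203), beside 0 over all probe sets, and it was 0.54 without eif3k replicate 3 and 0.68 without WT replicate 2. By pair, the median over the 4 was 1.12, 1.21 and 0.41, beside 0 over all probe sets in each pair.

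Read by array date, both synthesis genes had their highest signals on the later arrays of both genotypes. LOX2 averaged 12.03 on the later date and 10.04 on the first, a difference of 1.99 (SE 0.32, 95% interval 1.04 to 2.94) or 3.97-fold with genotype as a term. OPR3 averaged 8.24 on the later date and 6.74 on the first, a difference of 1.50 (SE 0.12, 95% interval 1.16 to 1.85) or 2.84-fold. Both later arrays lay above all 4 first-date arrays for LOX2, OPR3 and VSP1 and VSP2, a pattern of 2408 probe sets (10.6%). The adjusted p was 0.141 for LOX2 and 0.0600 for OPR3 (limma, Benjamini-Hochberg over all probe sets), so neither passed a rule that 76 probe sets passed (0.334%). At an unadjusted p under 0.05, LOX2 and OPR3 were among the 1759 probe sets higher on the later date (7.73%). With each array centred on its median OPR3 passed (difference 1.45, limma adjusted p = 0.0303), among 160 of 22746 probe sets. Both LOX2 and OPR3 passed with only brighter probe sets tested (adjusted p = 0.0151 and 0.00694), among 470 of 11373. Without the genotype term neither passed (adjusted p = 0.265 for LOX2 and 0.140 for OPR3). With a robust prior neither passed either (0.313 and 0.238, limma).

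VSP1 and VSP2 differed by 1.50 between the dates (SE 0.62) and PDF1.2 by 1.02 (SE 0.53), with adjusted p of 0.445 and 0.522 (limma). All 4 probe sets were higher on the later date by at least 1 on the log2 scale, as were 463 probe sets (2.04%). With arrays centred on their medians 3 of the 4 were so, and the share of all probe sets at that setting is not given. The difference was 0.21 for PDF1.2 without eif3k replicate 3 and 0.51 for VSP1 and VSP2 without WT replicate 3. The median over the 4 was 1.50 (range 1.02 to 1.99), beside 0 over all probe sets. Within eif3k the later array exceeded the mean of the first-date arrays by 2.75-fold for LOX2, 2.63-fold for OPR3 and 1.42-fold for VSP1 and VSP2. Within WT the same step was 5.74-fold for LOX2, 3.06-fold for OPR3 and 5.62-fold for VSP1 and VSP2. For PDF1.2, near the floor, the step was 1.83 in eif3k and 0.21 in WT on the log2 scale. OPR3 had the most even step across genotypes, whereas VSP1 and VSP2 stepped mainly in WT and PDF1.2 mainly in eif3k.

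The difference between these steps was tested as the interaction of genotype and array date, which takes the lone later array of a genotype to vary like its first-date arrays. It was −1.06 (SE 0.33) for LOX2, −0.22 (SE 0.24) for OPR3, −1.99 (SE 0.75) for VSP1 and VSP2 and 1.63 (SE 0.72) for PDF1.2. The adjusted p was 0.434 for LOX2, 1.00 for OPR3, 0.519 for VSP1 and VSP2 and 0.604 for PDF1.2 (limma), so none of the 4 was among the 834 probe sets with an adjusted p under 0.05 (3.67%). Of those 834 probe sets, 604 had 4 or more arrays with a signal under 3. Across the 6 arrays the signal of LOX2 had a Pearson correlation of 0.957 with OPR3 and 0.893 with VSP1 and VSP2, and PDF1.2 was less like them (0.683 with LOX2 and 0.490 with VSP1 and VSP2). These are descriptions over 6 arrays that share their dates.

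Several other measures moved with the array date or with single arrays beside these results. FAMA, a transcription factor of guard cells and myrosin cells, read 5.77 and 5.19 on the later arrays of eif3k and WT, against 3.98 to 4.61 on the first-date arrays. The summed linear signal of the 2 seed markers was 293.5 and 648.6 on the later arrays and 12.78 to 340.4 on the first-date arrays, the high first-date value being eif3k replicate 2. The photosystem gene LHCA4 read 13.85 and 13.91 on the later arrays and 14.51 to 14.68 on the first-date arrays. The summed signal of the 2 root markers was 3131 and 2745 on the later arrays of eif3k and WT. On the first-date arrays it was 1356 to 2783, the high value being eif3k replicate 2. By genotype it was 1876 to 3131 in eif3k and 1356 to 2745 in WT. Nearly all of it came from PYK10, a root beta-glucosidase, while the root hair marker EXPA7 was at the floor. Their part in the results was not tested. In aerial parts measured in bulk, fewer cells of a type and less RNA per cell cannot be told apart.

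Of 71 genes in lists of jasmonate synthesis, turnover, signalling and response, 17 had a named probe set, giving 12 probe sets beyond the 4 above. No gene of the receptor and co-repressor list (16 genes, with COI1 and the JAZ repressors) was named, so that step of the pathway was not analysed here. None of the 16 pathway probe sets passed the genotype rule or the array date rule. The median genotype difference was 0.06 over the 12 other probe sets, with 8 above 0 and 4 below, beside 8718 above and 8696 below over all probe sets, and their median array date difference was 0.05. Of the 16, 6 were higher in eif3k by at least 1 on the log2 scale, beside 0.519% of all probe sets. On the first date alone 3 of the 16 were so, beside 0.404% of all probe sets. Without eif3k replicate 3 it was 1 of the 16, and the share of all probe sets in that refit is not given. Of the 6, 4 were among the 6 probe sets named through the supplementary list and 2 among the 10 named by the platform. The probe sets named through that list had a median genotype difference of 1.14, and those named by the platform 0.06.

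Among the peroxisomal enzymes besides OPR3, AIM1, a multifunctional protein of beta-oxidation, read 8.85, 9.09 and 9.49 in eif3k, against 8.89, 8.55 and 8.96 in WT. It differed by 0.34 (SE 0.22) by genotype and 0.38 (SE 0.16) by date, and neither passed the test. The acyl-CoA oxidase ACX5 and the CoA ligase OPCL1, given here after their values were seen, differed by −0.12 and 0.08 by genotype. JMT, which methylates jasmonate, was at or near the floor on every array. Only 2 of 11 listed transcription factor genes, MYC3 and MYC4, had a named probe set, so MYC2 was not analysed here. Of these MYC factors, which activate the wound branch, MYC3 lay between 4.93 and 5.10 on all 6 arrays. MYC4 read 6.36, 6.26 and 6.53 in eif3k, against 7.20, 6.31 and 6.52 in WT, with only WT replicate 1 apart. The array date differences of AIM1, ACX5, OPCL1, JMT, MYC3 and MYC4 lay between −0.06 and 0.38.

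**Figure D3:**
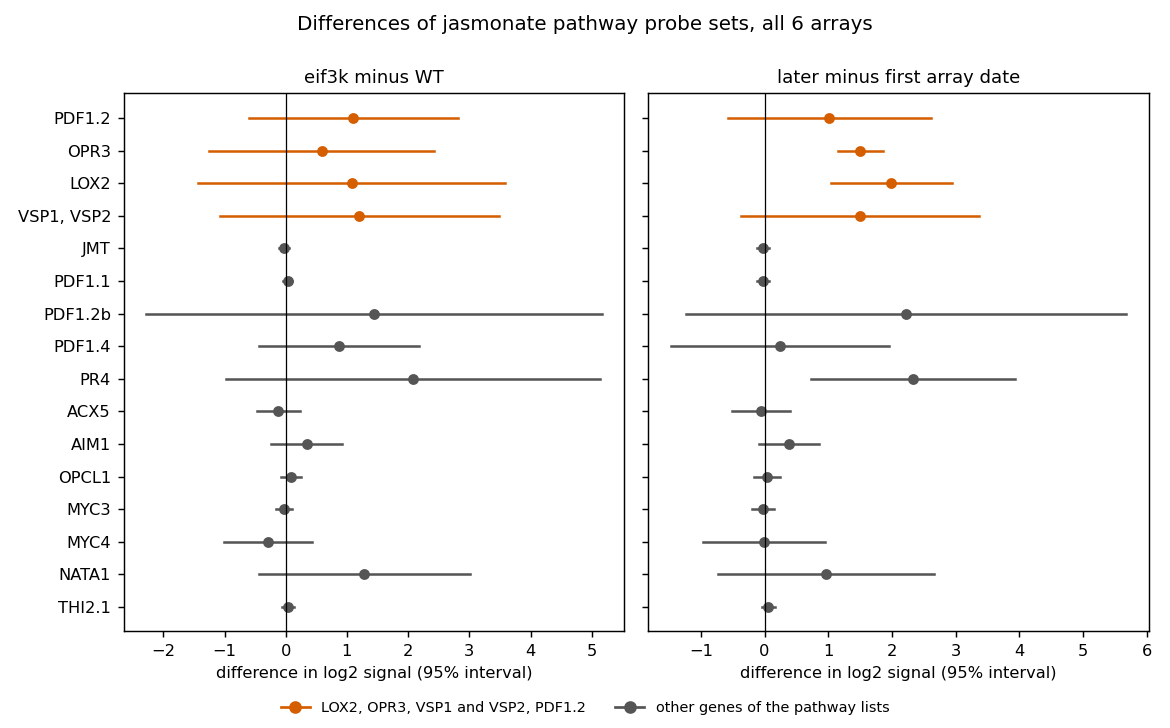
Differences in log2 signal (horizontal axes) with 95% intervals from limma for the 16 jasmonate pathway probe sets, eif3k minus WT on the left and later minus first array date on the right. Orange marks LOX2, OPR3, VSP1 and VSP2, and PDF1.2, and grey the other genes. All genotype intervals shown span 0, and on the right those of LOX2, OPR3 and PR4 lie above it.

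The response genes were more varied. NATA1, an acetyltransferase that responds to jasmonate, read 2.71, 3.80 and 5.01 in eif3k, against 2.38, 2.61 and 2.67 in WT. Its eif3k arrays all lay above its WT arrays, the only one of the 16 to do so (2.71% of all probe sets), although eif3k replicate 1 did so by a small margin near the floor. The difference was 1.29 (SE 0.64) on the log2 scale, against WT signals near the floor, and did not pass the test. PR4, a chitin-binding protein of the jasmonate and ethylene branch, read 5.75, 6.16 and 9.24 in eif3k, against 4.43, 4.59 and 5.89 in WT. Its genotype difference was 2.08 (SE 1.14), or 4.23-fold, and did not pass the test. It was 0.98 without eif3k replicate 3, the array with the low 25S rRNA control, and 1.45 on the first date alone. By date PR4 differed by 2.33 (SE 0.54), or 5.04-fold, with an adjusted p of 0.215 (limma). The date difference was 1.38 without eif3k replicate 3, and WT replicate 3 lay below eif3k replicate 2, so the date groups overlapped.

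PDF1.2b, a close relative of PDF1.2, was near the floor on 5 arrays and high on 1. It read 2.29, 2.30 and 6.65 in eif3k, against 2.25, 2.30 and 2.36 in WT. The next array after eif3k replicate 3 was near the floor, so no fold is given. Its genotype difference was 1.44 (SE 1.39), and −0.01 without eif3k replicate 3. Its interaction of genotype and date, 4.27, was among the 834 with an adjusted p under 0.05, but the spread in that test came only from first-date arrays near the floor, so the p is not read as a difference between the dates. As a probe set of the x class it can share probes with related defensins. The p of the interaction is not read for THI2.1 either, a thionin with an interaction of 0.12 and signals from 2.29 to 2.41. PDF1.4, shown for comparison after its values were seen, read 2.80, 4.36 and 4.20 in eif3k, against 3.15, 2.77 and 2.82 in WT.

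Across the 16 probe sets, PDF1.2, PDF1.2b, PR4 and NATA1 were higher on eif3k replicate 3 than on any other array by at least 1 on the log2 scale, a pattern of 200 probe sets (0.879%). For PR4 the step over the next array was 8.46-fold and for NATA1 2.31-fold. This is the array on which the 25S rRNA control read 8.13, and the part of that difference in these results was not tested. LOX2, OPR3 and VSP1 and VSP2 did not have this pattern, since WT replicate 3 was close to eif3k replicate 3 or above it. WT replicate 3 is the array with the highest 3′ minus 5′ differences of the RNA controls, and their part in these results was not tested.

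**Figure D4:**
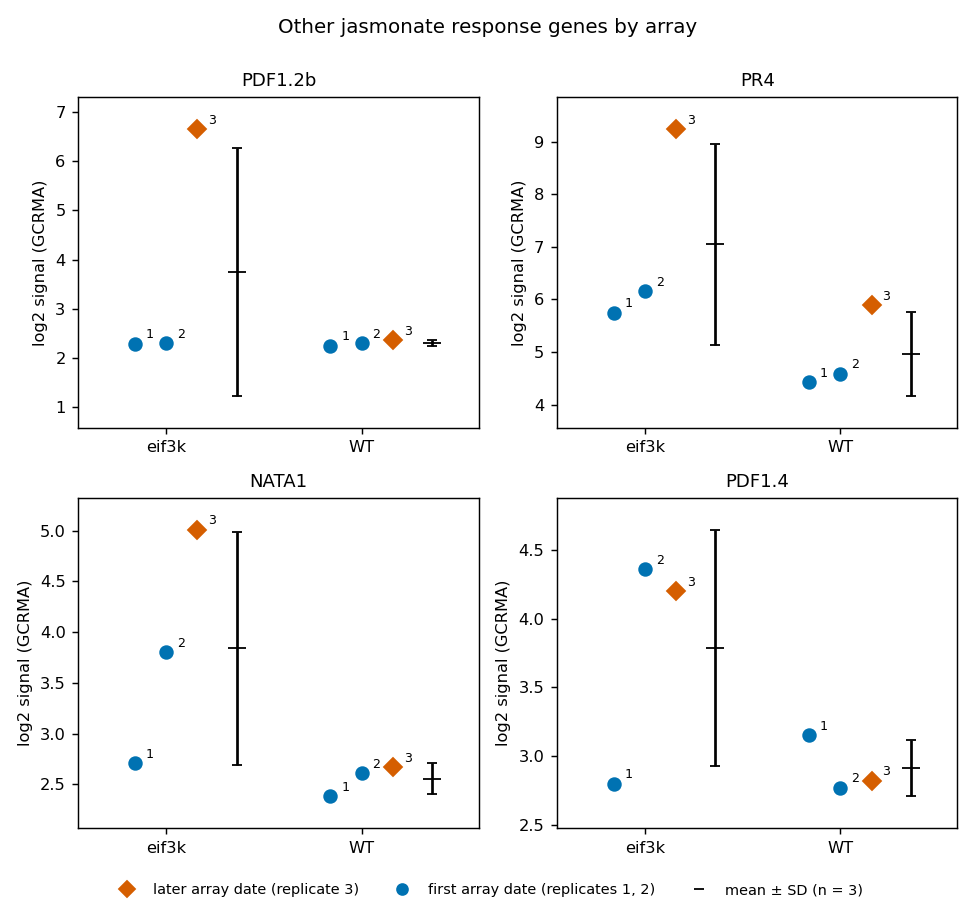
Log2 signal (vertical axes, each with its own range) of PDF1.2b, PR4, NATA1 and PDF1.4 on each array of eif3k and WT. Orange diamonds are the later array date, blue circles the first, numbers are replicates, and bars are mean ± SD (n = 3). PDF1.2b, PR4 and NATA1 are highest on eif3k replicate 3, and PDF1.4 on eif3k replicate 2.

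Related oxylipin enzymes, kept outside the jasmonate lists and their counts, were also read. HPL1, the gene of a hydroperoxide lyase, an enzyme class that uses the same lipoxygenase product as allene oxide synthase, read 4.36, 4.81 and 6.66 in eif3k, against 3.57, 4.63 and 6.62 in WT. Like LOX2 it was high on both later arrays, with a difference of 2.30 (SE 0.40) or 4.92-fold by date (limma, adjusted p = 0.153) and 0.34 (SE 1.09) by genotype. The shared probe set of OPR1 and OPR2, reductases related to OPR3, read 8.72, 10.45 and 9.45 in eif3k, against 8.53, 8.09 and 8.10 in WT. Its eif3k arrays all lay above its WT arrays, a pattern of 617 probe sets (2.71%). The difference of 2.46-fold, a size reached by 0.251% of all probe sets, did not pass the test (limma, adjusted p = 1.00). The touch gene ZAT10 lay between 2.26 and 2.83 on all arrays.

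The singly named probe sets most like LOX2 over the 6 arrays, among 763 with a mean above the median of all and an SD above 0.5, were scpl35 (a serine carboxypeptidase-like protein, r = 0.977), AT2G43590 (0.974), GAD (a glutamate decarboxylase, 0.959), AT2G16660 (0.959) and OSM34 (an osmotin, 0.959). AT2G43590 read 5.26, 5.89 and 7.16 in eif3k, against 4.22, 4.12 and 6.26 in WT, with both later arrays above the first-date arrays as for LOX2. In all, 7 probe sets had a correlation above 0.95 with LOX2. Those most like PDF1.2, among 764, were PCC1 (0.991), AT3G16530 (0.987), AT5G25930 (0.985), TBL38 (0.983) and ACA.l (0.981), and 15 were above 0.95. PCC1 read 3.71, 5.39 and 7.96 in eif3k, against 3.30, 2.57 and 3.71 in WT, so that eif3k replicate 3 was highest and eif3k replicate 2 second, as for PDF1.2. Likeness here is Pearson's r over 6 arrays, given as a description.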

How the data were processed

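Total mRNA of 3 eif3k and 3 WT samples was hybridised to Affymetrix ATH1 arrays. The authors deposited 1 table of log2 signals, made with GCRMA per the submitters' processing notes (version not stated). Their log base is read from the range of the values, 2.25 to 15.55. GCRMA adjusts background by probe sequence and normalizes between arrays, so dim probe sets pile up at the floor (25.5 to 26.8% of probe sets per array), where differences are compressed. The number of arrays limits the precision. The labels give a light and dark cycle, the methods continuous light, and this was not settled.

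Of 22810 probe sets, 64 controls were left out. The platform annotation named 1 gene for 13513 probe sets and several for 503, and 2 supplementary lists of the study (probe sets called changed in other mutants, and ribosomal protein genes), which also hold the authors' comparisons (not used), named 545 more by locus. Where both named a probe set, 846 of 891 shared a locus. A further 8185 were unnamed here. The members and gene lists were chosen with earlier results of these data known.

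Differences were fitted with limma 3.58.1 in R 4.3.3 (lmFit, eBayes, two-sided, Benjamini-Hochberg over 22746 probe sets), with the threshold of the methods, an adjusted p below 0.05 together with a 2-fold difference or more. Array date was fitted with genotype as a term, and the interaction was called on the adjusted p alone. Tests measure the spread among 3 samples a genotype. On simulated data of the same size, the genotype fit recovered 20% of 2-fold and 72% of 4-fold differences among 50 each, and the date fit 10% and 50%. The simulated spread left out the array date differences of the data, and the changed probe sets had a mean signal above the median. These shares may therefore be too high for the genotype fit of the data and for dim probe sets.

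The text names every member, the 2 probe sets with the largest genotype and the 2 with the largest date difference in each list, the 5 probe sets most like LOX2 and PDF1.2, and eIF3k. Deviations of same-numbered arrays from their group means correlated at 0.247, 0.378 and 0.542. Unlike numbers of the first date correlated at 0.308 and 0.395, so these values show no pairing by number within that date. The labels tie replicate 3 of both genotypes to its own date. Differences between same-numbered arrays are therefore given only as a description, and the main fit is unpaired. Alternatives were a replicate or date block, the first date alone, 2 other scalings, brighter probe sets only, a robust variance prior, array weights, and leaving out each array. No gene sequences were used here.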

Additional observations from a re-analysis of the deposited data

Results flagged for a closer look

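For PDF1.2b and THI2.1 the interaction of genotype and array date had an adjusted p under 0.05 (limma), at 4.27 (adjusted p = 0.00254) and 0.12 (adjusted p = 0.00823). Each genotype has 1 array on the later date, and the spread comes only from the first-date arrays, which read 2.25 to 2.30 for PDF1.2b and 2.29 for THI2.1, at or near the floor of the scale, so neither p is read as a difference between the dates. The value of PDF1.2b is set by eif3k replicate 3, at 6.65. The adjusted p of THI2.1 was 0.488 with arrays centred on their medians and 0.148 after quantile normalization.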

How the results depend on the processing

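No probe set passed the genotype rule in the fit as reported or in any of its 15 alternatives, in which 229 to 1216 probe sets had an unadjusted p under 0.05. With the replicate block there were 0 calls and 1089 probe sets at an unadjusted p under 0.05, and the adjusted p was 0.784 for OPR3 and 0.923 for LOX2, VSP1 and VSP2, and PDF1.2, so pairing changed no call after adjustment, while OPR3 had an unadjusted p under 0.05 with the block and not without it. Genotype differences of the 4 probe sets stayed positive in all 55 refits. Refits with a replicate or date block, a robust prior or only brighter probe sets leave the difference itself unchanged, so their sign was fixed in advance. Leaving out 1 array gave 0.56 to 1.92 for LOX2, 0.12 to 1.13 for OPR3, 0.60 to 2.03 for VSP1 and VSP2 and 0.50 to 1.64 for PDF1.2. Array date calls (76, of which 51 were higher on the later date) came to 129 without the genotype term, 160 with median centring (90 higher), 470 among brighter probe sets, 4 with a robust prior and 156 without the 2-fold criterion. Leaving out 1 array gave 0 to 199: 0 without WT replicate 1, 1 without eif3k replicate 1 or 2, 8 without WT replicate 2, 112 without eif3k replicate 3 and 199 without WT replicate 3. Interaction calls (834) came to 65 with median centring, 509 after quantile normalization and 0 among brighter probe sets (1412 at an unadjusted p under 0.05), and the cause of these shifts was not tested. PDF1.2 is too dim for the brighter set. Of 43 refitted date differences of the 4 probe sets, 40 kept their side of the threshold, and the other 3 passed it, as given for LOX2 and OPR3. Leaving out 1 array gave date differences of 1.46 to 2.52 for LOX2, 1.395 to 1.615 for OPR3, 0.51 to 2.49 for VSP1 and VSP2 and 0.21 to 1.83 for PDF1.2. Without WT replicate 3, LOX2 differed by 1.46 by date and 1.92 by genotype.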
